A study of Homo sapiens with 12 samples.

Results

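RNA that came down with an antibody to AGO2 was compared with RNA that came down with control IgG in Jurkat, an established line grown from a human T-cell leukaemia. The comparison rests on 8 of the 12 arrays of the series: 4 arrays of AGO2 immunoprecipitates (IPs) and 4 arrays of IgG IPs, chosen by their titles. The other 4 arrays held Total RNA of the same cells and entered only the estimate of the spread and the levels beside the results. Every culture carried a transduced construct, either a control vector or a vector encoding miR-21, so each antibody was measured in AGO2 IP with control vector, AGO2 IP with miR-21, IgG IP with control vector and IgG IP with miR-21. Each of these groups had 2 arrays, labelled replicate 1 and replicate 2. No group was an untransduced culture, and the labels name neither the promoter of the constructs nor the number of clones. The labels also do not say that replicates came from separate cultures, so p-values measure only the spread between these samples, which may be technical.

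AGO2 is an Argonaute protein, the core of the RNA-induced silencing complex (RISC). A loaded miRNA pairs through its seed, the bases near its 5′ end, with sites that lie mostly in the 3′ untranslated regions of mRNAs. Partner proteins of the TNRC6 family then recruit deadenylases, and the mRNA is translated less and decays. An AGO2 IP therefore recovers miRNAs with the mRNAs they are bound to, while an IgG IP recovers RNA that sticks without the antibody's target.

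The miRNAs below are shown because 1 of them was encoded by the construct and the others, of the miR-17 to miR-92 cluster, have a list of reported targets in the results. Mature sequences are from RefSeq on GRCh38.p14, written 5′ to 3′ with the seed, bases 2 to 8, in capitals. miR-21 lies at chr17:59841273-59841294 on the plus strand.
hsa-miR-21-5p: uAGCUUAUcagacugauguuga
hsa-miR-17-5p: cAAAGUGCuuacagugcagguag
hsa-miR-20a-5p: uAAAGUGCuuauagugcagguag
hsa-miR-18a-5p: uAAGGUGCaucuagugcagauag
hsa-miR-19a-3p: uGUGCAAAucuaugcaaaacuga
hsa-miR-19b-3p: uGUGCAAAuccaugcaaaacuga
hsa-miR-92a-3p: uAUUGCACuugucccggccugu
miR-17-5p and miR-20a-5p share their seed, and so do miR-19a-3p and miR-19b-3p. The seed of miR-21 is shared with none of the others. The arrays measured mRNAs and long noncoding RNAs, and gave no level of these mature miRNAs.

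Values are log2 expression levels, 1 probe set per gene, over 12824 genes with a mean of at least 4.02. On this scale a difference of 1 is a 2-fold difference. Array means were 4.39 to 4.41 in replicate 1 and 5.26 to 5.27 in replicate 2, so the fits by replicate number and the pairs compare arrays of 1 replicate number, while the test without a block and the separation of all 4 against all 4 arrays cross this gap. All 12 T cell markers passed the filter, with means of 7.81 to 8.61 in the AGO2 IPs and 7.93 to 8.73 in the IgG IPs, while the means over the B cell, monocyte, erythroid and epithelial markers on the array lay between 3.14 and 4.92 in the IPs, with 2 of 5, 1 of 3, 1 of 2 and 3 of 7 of them past the filter. The AGO2 IP array with control vector of replicate 1 stood apart from the other replicate 1 IPs in its control probe sets. Its ACTB signal was 4 higher at the 3′ end than at the 5′ end. The other replicate 1 IPs gave 1.97 to 2.18 and the replicate 2 IPs 2.08 to 3.48. The bioB hybridisation control read 9.08 to 10.9 on the other replicate 1 IPs and 5.13 to 6 on the replicate 2 IPs. On this array it read 12.01. Results that rest on this array are given without it as well.

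The 8 IP arrays were related to each other differently in the replicates. In replicate 1 the antibodies separated: the SD of the difference over genes was 0.513 between both AGO2 IPs and 0.306 between both IgG IPs, but 0.828 between AGO2 IP and IgG IP with control vector and 0.791 with miR-21. In replicate 2 the constructs separated. There AGO2 IP and IgG IP differed with an SD of 0.184 with control vector and 0.292 with miR-21, while the SD between constructs was 0.607 for the AGO2 IPs and 0.619 for the IgG IPs. The replicate 2 Total RNA arrays of both constructs differed by an SD of 0.198. The IP arrays of replicate 2 therefore lay together by construct and not by the antibody in their labels. Whether labels of these arrays were exchanged was not tested. Every value of replicate 2, and every value over both replicates, takes them as given, and an exchange would change what those values compare.

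**Figure D1:**
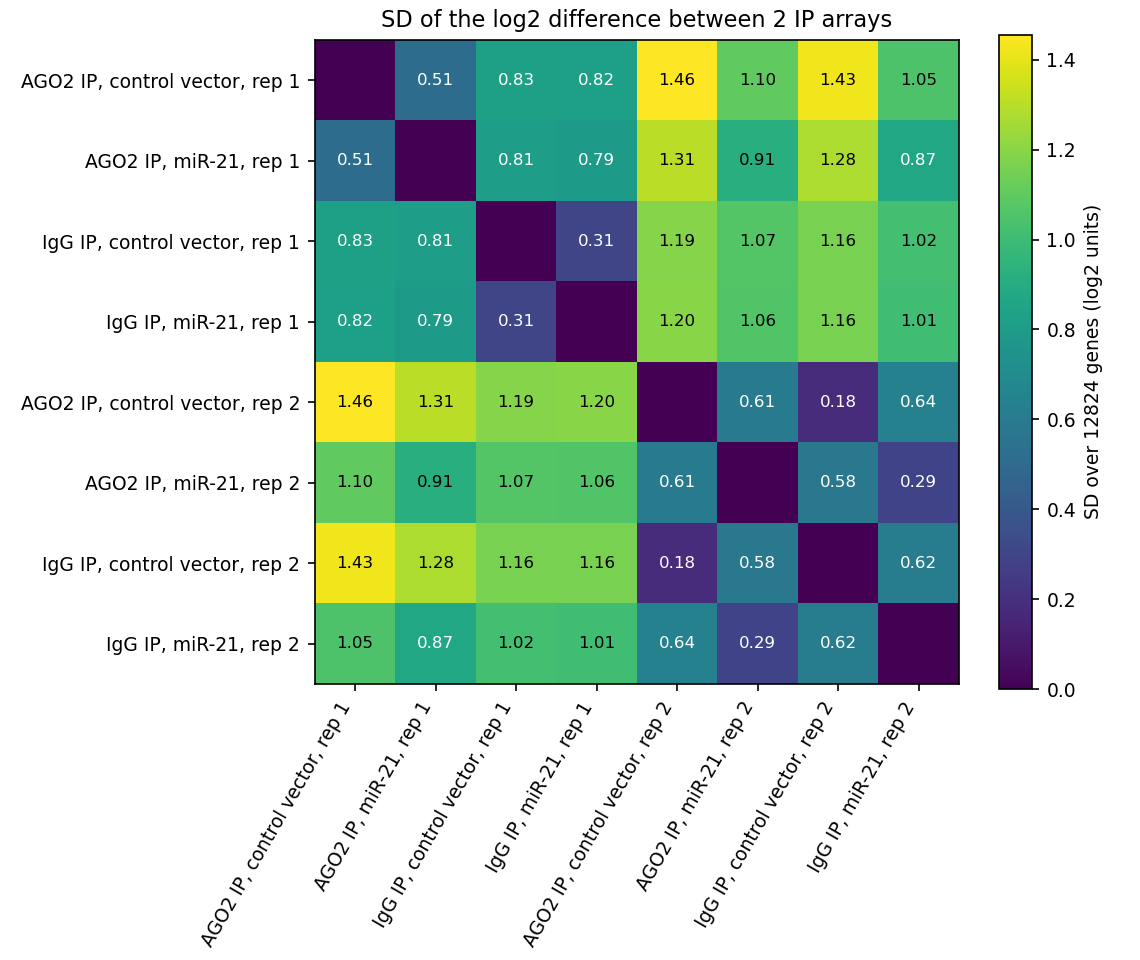
Standard deviation of the log2 difference over 12824 genes for each pair of the 8 IP arrays (dark is alike, bright is unlike). In replicate 1 the smallest values, 0.31 and 0.51, join arrays of the same antibody, and in replicate 2 the smallest, 0.18 and 0.29, join arrays of the same construct.

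Over both replicates no gene passed the test of AGO2 IP against IgG IP. limma with Benjamini-Hochberg adjustment called 0 of 12824 genes (0%), with 29 genes at an unadjusted p under 0.05 and a smallest adjusted p of 1. With the replicate number as a block the same test called 0 genes, with 663 at an unadjusted p under 0.05 and a smallest adjusted p of 0.819. Each construct alone gave 0 calls with and without the block. Without the block, 0 genes had an unadjusted p under 0.05 with control vector and 0 with miR-21, and with it 68 and 293 did. The replicates are therefore described apart.

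In replicate 1, RNA of the AGO2 IPs differed widely from RNA of the IgG IPs. limma, with both constructs of an antibody as its 2 samples, called 3021 genes (23.6% of those tested), 1541 higher in AGO2 IP (12%) and 1480 lower (11.5%), at an adjusted p under 0.05. Rises were large and falls small: the median rise was 1.23 with control vector and 1.49 with miR-21, and the median fall was -0.87 and -0.7. Both AGO2 IPs lay above both IgG IPs for 2973 genes (23.2%) and below for 4738 (36.9%). The difference exceeded 1 in both constructs for 871 of the rises and was below -1 in both for 71 of the falls. After cyclic loess scaling of the arrays the split was 1868 higher and 813 lower, so the share of calls that were higher moved from 51% to 69.7%. Leaving out an array also changes which pairs set the spread, so such counts do not show which array carried a call. Fewer falls passed with 1 IgG array: without the IgG IP array with control vector 796 genes were called higher and 60 lower, and without the IgG IP array with miR-21 867 and 132. Without the AGO2 IP array with miR-21 the calls were 1980 higher and 3367 lower, and without the AGO2 IP array with control vector 2164 and 1799.

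The largest rise was that of ZNF439, a zinc finger gene. Its level in replicate 1 was 10.45 in AGO2 IP with control vector and 10.48 with miR-21, and 5.2 and 4.89 in the matching IgG IPs. In replicate 2 it was 8.57 and 10.05 in the AGO2 IPs and 8.61 and 9.83 in the IgG IPs. The replicate 1 groups stood far apart, at a difference of 5.42 ± 0.17 (SE; limma adjusted p = 9.02e-05), while the replicate 2 arrays overlapped by antibody and differed by construct. ENPP5, a member of the ectonucleotide pyrophosphatase family, read 9.07 and 9.92 in the AGO2 IPs of replicate 1 against 4.58 and 4.57 in the IgG IPs, a rise of 4.92 ± 0.27 (limma adjusted p = 0.000116). Its second probe set gave 4.76. Of the 10 largest rises, 6 were ZNF genes: besides ZNF439 these were ZNF700 (4.77), ZNF14 (4.65), ZNF658 (4.63), ZNF180 (4.58) and ZNF780A (4.51). Other probe sets gave 1.77 for ZNF180 and 2.69 for ZNF780A.

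Besides ENPP5, the others of the 10 largest rises were GPR137B, SOCS1 and CFL2. GPR137B, a lysosomal membrane protein, read 10.82 and 11.01 in the AGO2 IPs and 6.04 and 6.54 in the IgG IPs, a rise of 4.63 ± 0.21. SOCS1, an inhibitor of cytokine signalling through JAK kinases, read 8.1 and 8.59 against 3.39 and 4.07, a rise of 4.61 ± 0.28, but its other probe sets gave only 0.56 and 2.28. CFL2, an actin-severing cofilin, rose by 4.38 ± 0.22, with 3.65 and 3.71 from its other probe sets. In each of these genes both AGO2 IPs lay above both IgG IPs.

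**Figure D2:**
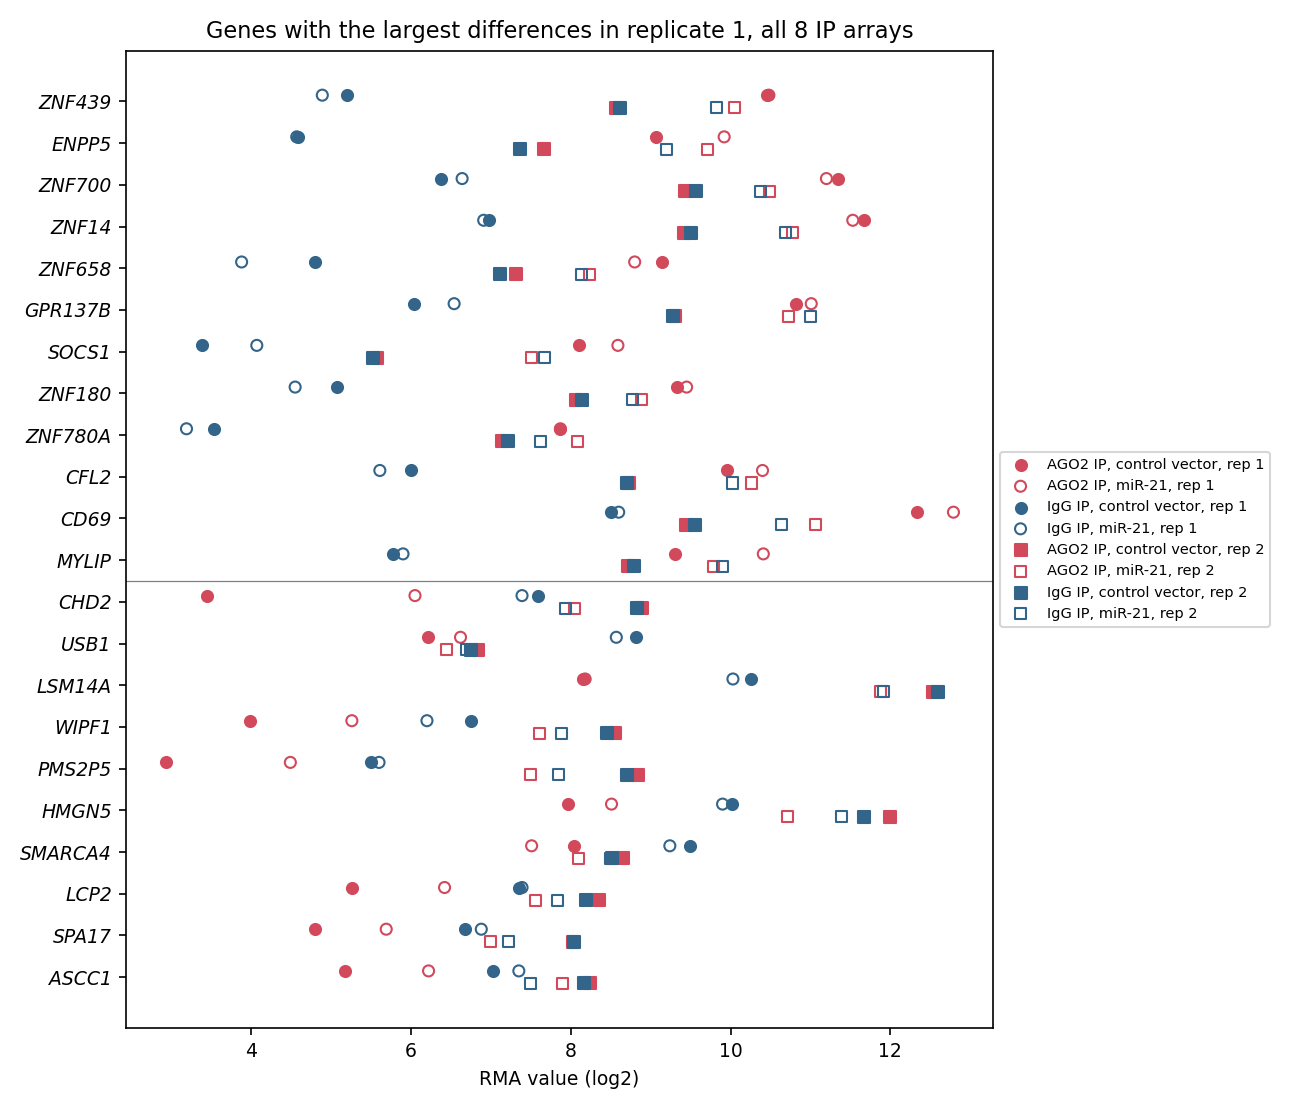
Level (log2) of the 10 genes with the largest rise, of CD69 and MYLIP (above the line) and of the 10 genes with the largest fall (below it) in replicate 1, on all 8 IP arrays. Red is AGO2 IP, blue IgG IP, filled control vector, open miR-21, circles replicate 1 and squares replicate 2. Circles part by colour, as for ZNF439 (10.45 and 10.48 against 5.2 and 4.89), and squares part by filling, as for SOCS1 (5.57 and 5.52 against 7.51 and 7.67).

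The falls of replicate 1 were smaller and less even between the constructs. CHD2, a chromatin remodeller, had the largest, at -2.74 ± 0.72 (limma adjusted p = 0.0352), with 3.45 and 6.05 in the AGO2 IPs and 7.59 and 7.39 in the IgG IPs. Its fall was carried by the array with control vector (-4.14, against -1.34 with miR-21), and its 3 other probe sets gave -0.46 to 0.17. USB1, an exonuclease that trims U6 RNA, read 6.21 and 6.62 against 8.82 and 8.57, a fall of -2.28 ± 0.2 that was alike in both constructs, with -2.16 to -0.5 from its other probe sets. LSM14A, a processing body protein, read 8.15 and 8.18 against 10.26 and 10.03, a fall of -1.98 ± 0.17. SMARCA4, the ATPase of BAF chromatin remodelling complexes, fell by 1.59 on the log2 scale, but its other probe sets ranged from -1.74 to 0.05.

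WIPF1, PMS2P5, HMGN5, LCP2, SPA17 and ASCC1 completed the 10 largest falls, between -1.85 and -1.49. LCP2, an adaptor of T cell receptor signalling, read 5.26 and 6.42 in the AGO2 IPs and 7.35 and 7.39 in the IgG IPs. Its other probe sets gave -0.87 to -0.3. Of the 1480 falls, 1042 were deeper with control vector, and in 438 the difference was below -1 with control vector and above -1 with miR-21. The array behind the deeper falls is the one with the ACTB 3′ to 5′ difference of 4, whose part in the falls was not tested. Without it all 1480 falls stayed below 0 and all 1541 rises above 0. The same held without the IgG IP array with control vector.

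The mRNAs of the silencing machinery moved in both directions. Of 28 measured genes of RISC, miRNA biogenesis and export, 9 rose and 5 fell (32.1% and 17.9%), with a median difference of -0.03 against -0.12 over all genes tested. TNRC6A, the scaffold that joins Argonaute to deadenylases, read 9.61 and 9.82 in the AGO2 IPs and 7.04 and 7.2 in the IgG IPs, a rise of 2.6 ± 0.17. Its other probe sets spread from -0.39 to 3.09, and those of TNRC6B (1.18) and TNRC6C (1.02) also disagreed. DICER1, the enzyme that cuts precursor miRNAs, rose by 2.21 ± 0.16 (9.59 and 9.42 against 7.29 and 7.3), with 1.65 and 1.91 from its other probe sets. TARBP2, a partner of Dicer, rose by 1.62, with -0.01 from its other probe set, and the stem cell factor TRIM71 by 2.96.

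The Argonaute mRNAs themselves did not pass the threshold. AGO2 mRNA read 5.85 and 7.19 in the AGO2 IPs and 6.46 and 6.45 in the IgG IPs, so the difference was -0.6 with control vector and 0.74 with miR-21. The AGO2 IP arrays thus lay on both sides of the IgG IP arrays, and the mean difference was 0.07 ± 0.39 (limma adjusted p = 0.916). With either AGO2 IP array left out it passed, in opposite directions: higher by 0.74 without the array with control vector and at -0.6 without the one with miR-21. The differences of AGO1, AGO3 and AGO4 were 0.52, -0.15 and -0.33, with limma adjusted p of 0.0858, 0.814 and 0.569. The mRNA level does not show how much AGO2 protein was recovered.

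Among 41 genes of deadenylation, decapping and decay 5 rose and 8 fell (12.2% and 19.5%, against 12% and 11.5% of all genes), and after cyclic loess scaling, which turned the balance of all genes too (1868 and 813), 10 rose and 2 fell. CNOT4, a ubiquitin ligase of the CCR4-NOT complex, read 8.92 and 8.86 against 5.87 and 6.16, a rise of 2.87 ± 0.17. Its other probe sets gave 0.51 to 2.38. ZFP36, which brings deadenylases to AU-rich mRNAs, rose by 1.87 and the deadenylase PAN2 by 1.11. LSM4, a subunit of the ring that binds deadenylated mRNA ends, fell by 1.11 on the log2 scale, with 8.87 and 9.05 against 10.05 and 10.08. The other probe sets of LSM4 gave -1.33 to -0.17.

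Of the reported targets of miR-21, more rises than falls passed the test in replicate 1. Of 37 that passed the filter on low values, out of 54 listed, 8 rose and 1 fell (21.6% and 2.7%, against 12% and 11.5% of all genes). The median was -0.21 with control vector and 0.34 with miR-21. Other lists also moved between the constructs, in either direction: decay genes from -0.3 to 0.1 and oxidative phosphorylation genes from -0.31 to -0.49. The value with control vector rests on the AGO2 IP array with the ACTB 3′ to 5′ difference of 4. The construct was not shown to change the antibody difference of any gene, but the test of this interaction cannot decide the question. It takes in the replicate 2 arrays, which lay together by construct, and without the block it crosses the gap in array level. By limma it called 0 genes over both replicates, with 0 at an unadjusted p under 0.05. With the replicate block it called 0, with 39. The median of the miR-21 targets was -0.19 without the AGO2 IP array with miR-21 and 0.19 without the one with control vector. TGFBR2, a receptor of TGF-beta, read 8.74 and 9.21 in the AGO2 IPs and 6.44 and 6.37 in the IgG IPs, a rise of 2.57 ± 0.2. SESN1, a p53-induced regulator of mTORC1, rose by 2.53 ± 0.22, from 5.82 and 6.32 to 8.49 and 8.71. RECK, a membrane inhibitor of metalloproteinases, rose by 1.9, though its other probe sets ran from -1.07 to 0.51, and PPARA, a fatty acid receptor, by 1.79. SPRY1 and SPRY2, inhibitors of growth factor signalling, gave -0.35 and -0.25 and did not pass the threshold (limma adjusted p of 0.476 and 0.544). PDCD4 and BTG2 are not analysed here.

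Reported targets of the miR-17 to miR-92 cluster that passed the test were rises but for 1, on the arrays as deposited. Of 33 measured, out of 40 listed, 13 rose and 1 fell (39.4% and 3.03%), with a median of 0.37, and cyclic loess scaling gave 15 and 0. Without either IgG IP array 12 rises passed. Without the AGO2 IP array with control vector 19 rose and 1 fell with a median of 0.7, and without the one with miR-21 15 rose and 4 fell. CD69, an early activation antigen of lymphocytes, read 12.34 and 12.79 in the AGO2 IPs against 8.5 and 8.6 in the IgG IPs, a rise of 4.02 ± 0.26 (limma adjusted p = 0.000163). MYLIP, the ubiquitin ligase that degrades the LDL receptor, read 9.3 and 10.41 against 5.78 and 5.9, a rise of 4.01 ± 0.35. The groups were far apart for both, although the 4 other probe sets of MYLIP ranged from 0.31 to 4.34. ZNFX1, a helicase that senses RNA, rose by 3.47 ± 0.23. BCL2L11, which encodes the death inducer BIM, rose by 1.55 ± 0.2 at its brightest probe set (8.86 and 9.34 against 7.55 and 7.55), but its 5 others gave -0.42 to 0.39. TGFBR2 and TNFAIP3 are on both target lists.

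Zinc finger genes with ZNF symbols, mostly DNA-binding repressors, had the highest count of rises of any list, and their list is also by far the longest. By share of members, T cell activation genes (46.7%), miR-17 to miR-92 targets (39.4%) and RISC genes (32.1%) lay above the ZNF genes. Of 352 measured, out of 466 listed, 102 rose and 8 fell (29% and 2.27%), with a median of 0.23, and between 107 and 112 rose under cyclic loess, quantile and median scaling. The list holds the extremes already given and was chosen knowing that they lead the ranking. ZNF14, for example, read 11.67 and 11.53 in the AGO2 IPs and 6.98 and 6.91 in the IgG IPs. ZNF124 read 10.65 and 10.97 against 7.27 and 6.49, a rise of 3.93 ± 0.28, while its other probe set gave -0.39. Leaving out the IgG IP array with control vector left 66 rises and 0 falls, and leaving out the one with miR-21 left 68 and 0. Without the AGO2 IP array with miR-21 the counts were 110 and 31, and without the one with control vector 131 and 15. Closely related ZNF genes can share probe signal, which was not tested.

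The genes on the list that T cells induce on activation included CD69. Of 15 measured, out of 29 listed, 7 rose and 0 fell (46.7%), with a median of 0.49. CD69 led them, and DUSP2, a nuclear phosphatase of MAP kinases, followed with 10.19 and 10.26 in the AGO2 IPs against 7.12 and 7.08 in the IgG IPs, a rise of 3.13 ± 0.16. IER3, an immediate early gene, read 9.24 and 10.17 against 6.67 and 7.58 and rose by 2.58 ± 0.44. DUSP5, another MAP kinase phosphatase, rose by 1.97. Without the IgG IP array with control vector 3 of the 15 passed, and without the one with miR-21 4 did. Without the AGO2 IP array with miR-21 7 rose and 2 fell with a median of 0.13, without the one with control vector 9 and 0 with a median of 0.88, and after cyclic loess 7 and 1.

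Of 37 genes of T cell receptor signalling 4 rose and 4 fell (10.8% each), shares near those of all genes (12% and 11.5%). UBASH3A, an inhibitor of the receptor, rose by 1.95 (8.44 and 8.65 against 6.66 and 6.54), and the kinase FYN by 1.49, with 0.43 to 1.71 from its other probe sets. LCP2 and TRAT1, both adaptors, fell by 1.53 and fell by 1.26. Of 21 p53 targets 6 rose and 1 fell (28.6% and 4.76%), the rises including SESN1, the kinase PLK3 (1.64), the death receptor FAS (1.53) and SESN2 (1.48). Other probe sets gave -0.02 for PLK3, 0.41 to 1.56 for FAS and 0.83 for SESN2. Of 28 genes of the BCL2 family and caspases 6 rose and 2 fell (21.4% and 7.14%): CASP8, the initiator caspase below FAS, read 10.82 and 10.75 against 7.43 and 7.13, a rise of 3.5 ± 0.19, and MCL1, a survival factor, rose by 1.7 ± 0.16. Interferon response genes gave 4 rises and 2 falls of 31 (12.9% and 6.45%), with a median of -0.41 against -0.12 over all genes. The rises included IRF9, part of the interferon-activated transcription complex, at 3.34 and IRF1 at 1.9, and the falls included IFI35 at -1.13.

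Of the proteasome and chaperone genes that passed the test as deposited, most were lower, but for chaperones not after cyclic loess. Falls were also more frequent among all genes with high Total RNA levels in replicate 1. At levels of 8.25 to 14.43, 28.1% of 3206 genes fell and 10.2% rose. At levels of 2.32 to 4.91, 1.75% of 3206 genes fell and 4.68% rose. No list was compared with genes of like level, so whether its counts differ from theirs was not tested. Of 34 proteasome subunits 2 rose and 16 fell (5.88% and 47.1%), with a median of -0.52, and after cyclic loess 2 rose and 8 fell with a median of -0.27. PSMC3, an ATPase of the cap, read 8.16 and 8.82 in the AGO2 IPs and 9.59 and 9.79 in the IgG IPs, a fall of -1.2 ± 0.24. PSMD8 fell by 1.05 and PSMA3 fell by 1.02, the latter with 0.18 from its other probe set. Of 24 heat shock and chaperone genes 2 rose and 11 fell (8.33% and 45.8%), with a median of -0.55. After cyclic loess 4 rose and 3 fell, with a median of -0.26. STIP1, which links HSP70 to HSP90, fell by 1.23 on the log2 scale (8.45 and 8.54 against 9.67 and 9.77), while DNAJB4, a cochaperone, rose by 2.73. Without the IgG IP array with control vector the medians were -0.55 for proteasome genes and -0.51 for chaperone genes. Without the one with miR-21 they were -0.53 and -0.47.

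Genes of the mitochondrion and the ribosome gave more falls than rises as deposited and under quantile and median scaling, but more rises after cyclic loess. Cyclic loess turned the balance of all genes too, to 1868 rises and 813 falls, with a median of -0.03. As deposited 12% of all genes rose and 11.5% fell. Of 71 nuclear-encoded genes of oxidative phosphorylation 5 rose and 17 fell (7.04% and 23.9%), with a median of -0.42. After cyclic loess 8 rose and 2 fell, with a median of -0.14. Of 75 mitochondrial ribosomal proteins the counts were 7 and 19 (9.33% and 25.3%), with a median of -0.35. After cyclic loess they were 10 and 6, with a median of -0.17. Of 59 cytosolic ribosomal proteins they were 2 and 9 (3.39% and 15.3%), with a median of -0.28. After cyclic loess they were 6 and 1, with a median of 0.15. No direction is given for these lists. Single members moved far in them: NDUFV3, a subunit of complex I, read 12.69 and 12.21 against 9.25 and 9.01, a rise of 3.32 ± 0.21. MRPL58, a peptidyl-tRNA hydrolase of the mitochondrial ribosome, rose by 2.84 ± 0.16, MRPL17 by 2.2 and MRPL20 by 2.18.

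The remaining lists gave mixed counts. Of 31 genes of the unfolded protein and integrated stress response 4 rose and 9 fell (12.9% and 29%), or 6 and 6 after cyclic loess: CHAC1, which degrades glutathione, read 9.56 and 10.37 against 6.05 and 6.46, a rise of 3.71 ± 0.29, whereas the protein disulfide isomerase PDIA4 fell by 1.28. Of 30 mitosis genes 5 rose and 5 fell (16.7% each), with the phosphatase CDC25C at 3.41 and the spindle kinesin KIF11 at -1.48. Of 44 DNA replication genes 5 rose and 9 fell (11.4% and 20.5%), or 9 and 6 after cyclic loess. Of 21 replication-dependent histone genes 0 rose and 3 fell by limma (0% and 14.3%). Of 18 cholesterol synthesis genes 2 rose and 2 fell (11.1% each), near the shares of all genes (12% and 11.5%). Very long mRNAs gave 5 rises and 5 falls of 51 (9.8% each), with a median of -0.19. The median was -0.39 without the AGO2 IP array with miR-21 and 0.02 without the one with control vector. Over all genes it was -0.14 and -0.09 in these runs. The transcripts ATM, KMT2C and UTRN rose by 1.58, 1.53 and 1.31, each with other probe sets no higher than 0.68.

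The counts of the lists moved with single arrays, while all 1541 rises and all 1480 falls of replicate 1 kept their sign in each such run. Without either IgG IP array no list kept more than 2 falls, and DNA replication kept 0 rises. Without the IgG IP array with control vector 3 of the p53 targets rose. Without the AGO2 IP array with miR-21 more falls passed in every list and over all genes too, so this growth is not particular to any list. Medians went from -0.12 to -0.14 over all genes, from -0.27 to -0.42 in the unfolded protein list and from -0.19 to -0.14 in T cell receptor signalling.

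Long noncoding RNAs were measured beside the mRNAs. Of 735 long noncoding RNAs measured, 29 rose and 49 fell (3.95% and 6.67%), against 12.7% and 11.9% of 11840 protein-coding genes, a description with no test. Among the 22 listed by name, JPX read 6.17 and 5.64 in the AGO2 IPs and 2.72 and 3.43 in the IgG IPs, a rise of 2.84 ± 0.33. OIP5-AS1, a cytoplasmic noncoding RNA, rose by 1.75 ± 0.18, but its other probe sets gave -0.85 to 1.84. MALAT1, a nuclear noncoding RNA, read 4.65 and 7.39 in the AGO2 IPs and 8.33 and 7.86 in the IgG IPs. Its difference was -3.68 with control vector and -0.47 with miR-21, and it did not pass the threshold (limma adjusted p = 0.102). The 10 other probe sets of MALAT1 gave -1.42 to 0.09.

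**Figure D3:**
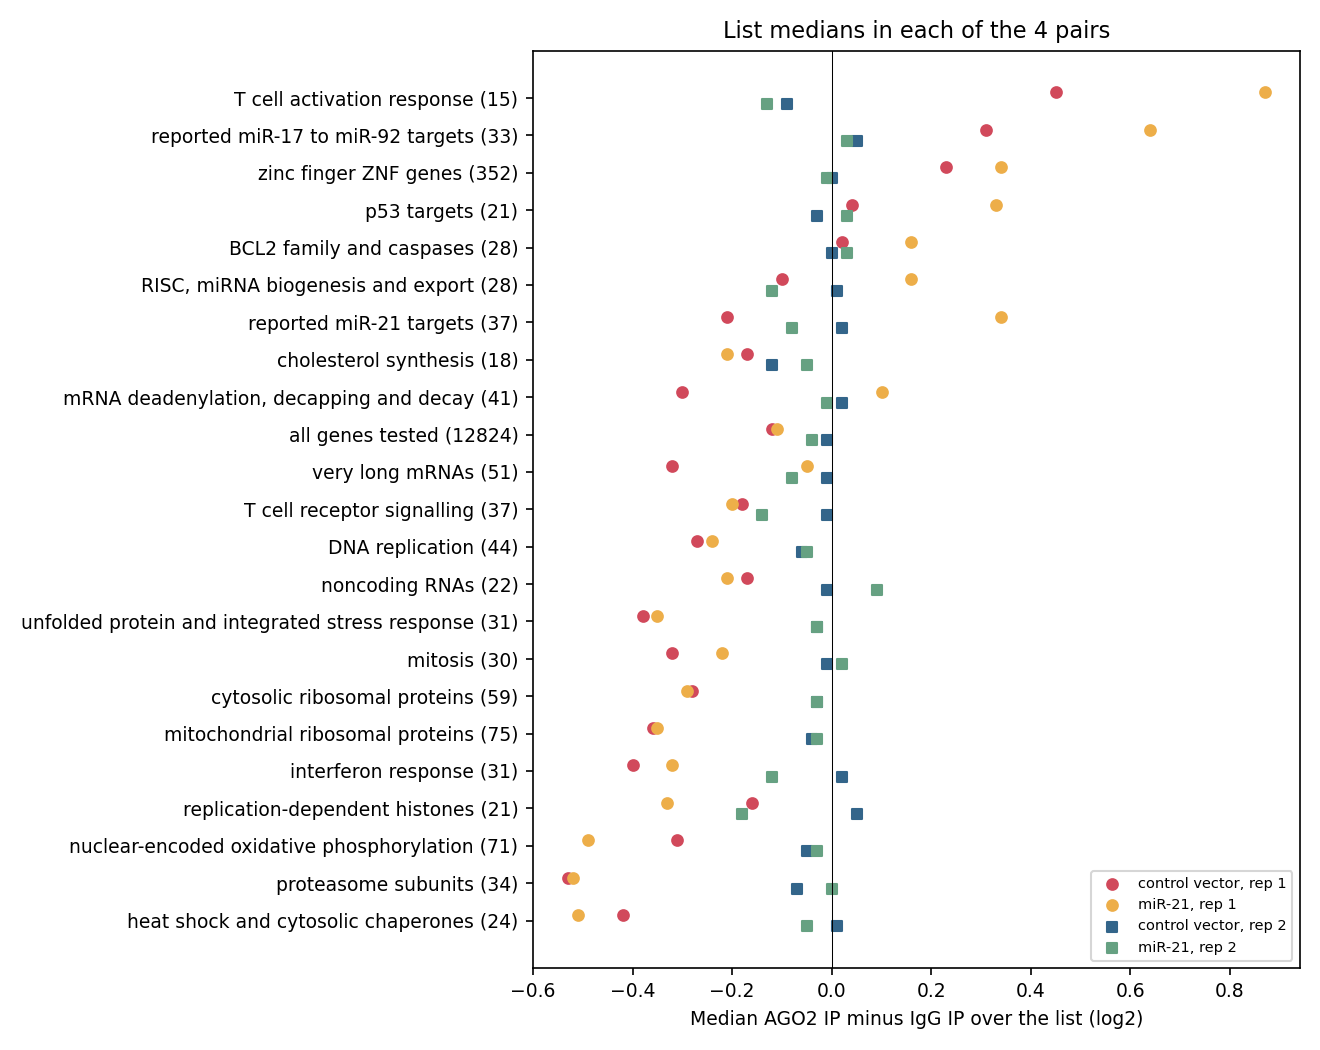
Median of AGO2 IP minus IgG IP (log2) over each gene list, with the number of genes measured in parentheses, for each construct and replicate number. Circles (replicate 1) spread from -0.53 for proteasome subunits with control vector to 0.87 for T cell activation with miR-21, and squares (replicate 2) lie between -0.18 and 0.09.

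In replicate 2 no gene passed the test of AGO2 IP against IgG IP. limma called 0 of 12824 genes (0%), with 52 at an unadjusted p under 0.05, and with the construct as a block 0, with 47. Both AGO2 IPs lay above both IgG IPs for 723 genes (5.64%) and below for 1148 (8.95%). A difference beyond 1 was seen in 1 gene upward and 3 downward with control vector, and in 6 and 26 with miR-21, against 1138 and 1105 and 1368 and 172 in replicate 1. ADCY5, an adenylyl cyclase, was the sole gene with an unadjusted p under 0.01 and arrays apart by antibody: it read 5.14 and 5.03 in the AGO2 IPs and 4.42 and 4.25 in the IgG IPs, and in replicate 1 the AGO2 IPs lay lower, by -0.29 and -0.3. The genes that rose in replicate 1 did not stand out here. Of the 1541, 49.6% had a difference above 0 with control vector and 44.3% with miR-21, beside 47.5% and 43.7% of all genes, and their medians were 0 and -0.04.

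**Figure D4:**
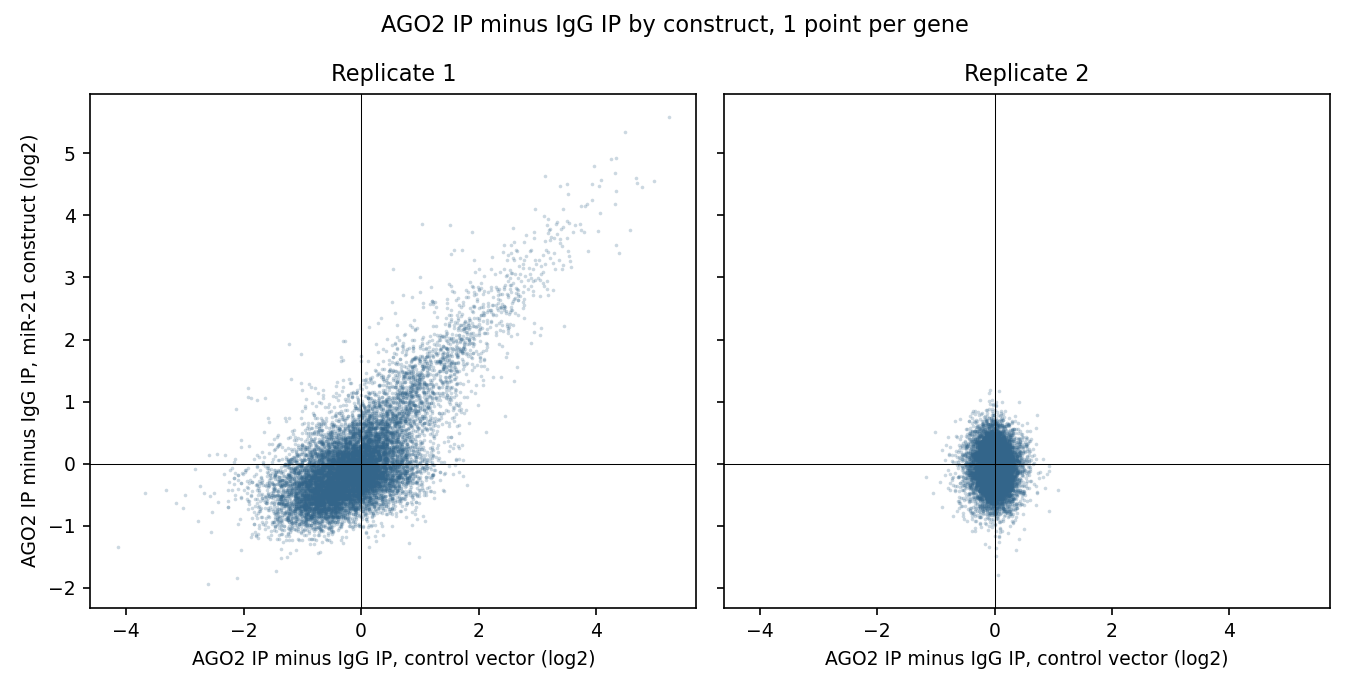
AGO2 IP minus IgG IP (log2) with control vector (x axis) and with miR-21 (y axis), 1 point per gene, in replicate 1 (left) and replicate 2 (right) on the same axes. Replicate 1 forms a diagonal that reaches ZNF439 at 5.24 and 5.59, and replicate 2 a cloud around 0.

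Within replicate 1 the constructs gave differences that correlated at r = 0.75 across 12824 genes, and in replicate 2 at -0.01. Across the replicates the correlations were -0.04 with control vector and 0.06 with miR-21. These describe genes of single array pairs, which are not independent replicates. A test of the change itself, replicate 1 minus replicate 2, called 212 genes by limma, 207 with a larger difference in replicate 1 (1.61%) and 5 with a smaller one (0.039%). ZNF439 (5.33; limma adjusted p = 0.0065), ZNF700 (4.78), GPR137B (4.75), SOCS1 (4.67) and ZNF14 (4.66) led, and USB1 (-2.2) and LSM14A (-1.93) were lowest. Of the ZNF genes, 38 of 352 were among the 207, and of the miR-17 to miR-92 targets 4 of 33. The count was 7 when only the 8 IP arrays were fitted and was 584 with the construct as a block.

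Some genes had the same sign in all 4 pairs of arrays, at small sizes. AGO2 IP was above IgG IP in 4 of 4 pairs for 722 genes (5.63%) and below for 1679 (13.1%), and the smallest of the 4 differences exceeded 0.5 for 0 genes upward and 1 downward. That gene was PDE9A, a phosphodiesterase of cyclic GMP, at -0.79 and -0.76 in replicate 1 and -0.52 and -0.59 in replicate 2. Its replicate 1 levels of 2.99 and 3.82 in the AGO2 IPs and 3.78 and 4.58 in the IgG IPs lay near the filter of 4.02. PLXNC1, a semaphorin receptor, had the largest smallest rise: 0.54 and 3.13 in replicate 1 and 0.4 and 0.39 in replicate 2. ENPP5 was higher in each pair too, by 4.49, 5.35, 0.3 and 0.51, as was TOGARAM1, a microtubule-binding protein of cilia, by 2.56, 3.52, 0.28 and 0.47. STK25, a kinase of the Golgi, was lower by -0.85, -0.56, -0.41 and -0.58, and SLC3A2, the heavy chain of amino acid transporters, by -1.04, -0.72, -0.42 and -0.34. None of these passed the test over both replicates.

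All 4 AGO2 IP arrays lay above all 4 IgG IP arrays for 4 genes (0.0312%) and below for 103 (0.803%). The 4 were ASB10, MIR194-2, PIANP and LHFPL4, at pair differences of 0.02 to 1.57. LHFPL4 read 4.27, 4.31, 4.64 and 4.43 in the AGO2 IPs and 3.9, 4.02, 4.11 and 4.11 in the IgG IPs. These levels lie close to the filter on low values, and none of the 4 passed the test.

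The same 4 IP arrays of replicate 2 were also split by construct, a split chosen because they were known to lie together that way. Its counts describe the size of that layout and are no separate evidence for it, since an AGO2 IP and an IgG IP stand in for 2 samples of a construct. Taken so, limma called 4701 genes, 2638 higher with miR-21 (20.6%) and 2063 lower (16.1%). Centring each array on its median turned this split to 1812 higher and 3801 lower, a share of higher calls of 32.3% in place of 56.1%. ARL2, a small GTPase, showed the largest rise: in replicate 2 it read 6.72 in AGO2 IP and 6.59 in IgG IP with control vector, and 10.74 and 10.7 with miR-21, a difference of 4.06. In replicate 1 ARL2 read 12.1 and 12.08 in the AGO2 IPs and 7.76 and 7.69 in the IgG IPs. It was thus high in AGO2 IP whatever the construct in replicate 1, and high with miR-21 whatever the antibody in replicate 2.

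CHCHD10, a mitochondrial protein, showed the same layout, with 7.32 and 7.37 with control vector and 10.92 and 11.33 with miR-21 in replicate 2, and 11.98 and 11.51 in AGO2 IP against 7.4 and 7.74 in IgG IP in replicate 1. The next rises were CHAC1 (3.62), GLMP (3.5), DUSP2 (3.45), CASTOR1 (3.32), KRTCAP2, MTLN and MANBAL (each 3.26) and RNH1 (3.25). Each of these was also called higher in AGO2 IP in replicate 1, but other probe sets gave only -0.09 for KRTCAP2 and 0.45 for RNH1 there. The largest falls were ZBTB6 and LACC1, both at -1.56. LACC1, a macrophage enzyme of purine metabolism, read 7.93 and 7.71 with control vector and 6.29 and 6.22 with miR-21, and its replicate 1 levels of 2.53 to 2.72 gave an antibody difference of -0.07 (limma adjusted p = 0.801).

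Of the 1541 genes that rose in AGO2 IP in replicate 1, 1111 (72.1%) were also called higher with miR-21 in the replicate 2 IPs and 16 lower. The 1111 were 42.1% of all 2638 such calls. Of the 1480 falls, 703 (47.5%) were called lower and 11 higher. Over all genes tested the shares of this split were 20.6% higher and 16.1% lower. The replicate 1 rises had a median construct difference of 0.86 in the AGO2 IPs and 0.88 in the IgG IPs of replicate 2, but 0.02 in its Total RNA. All 13 rises among miR-17 to miR-92 targets and all 7 among T cell activation genes were called higher in this split, beside 72.1% of all rises. Of the 102 ZNF rises 62 were called higher and 4 lower, a smaller share than over all rises. For TNRC6A the construct difference was 1.74 in the AGO2 IPs and 1.62 in the IgG IPs, for CD69 1.62 and 1.08, and for ZNFX1 2.68 and 2.94. Replicate 1 and replicate 2 share no array in this comparison. By its labels each side of the split holds 1 AGO2 IP and 1 IgG IP array, and each combination of construct and antibody is 1 array.

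**Figure D5:**
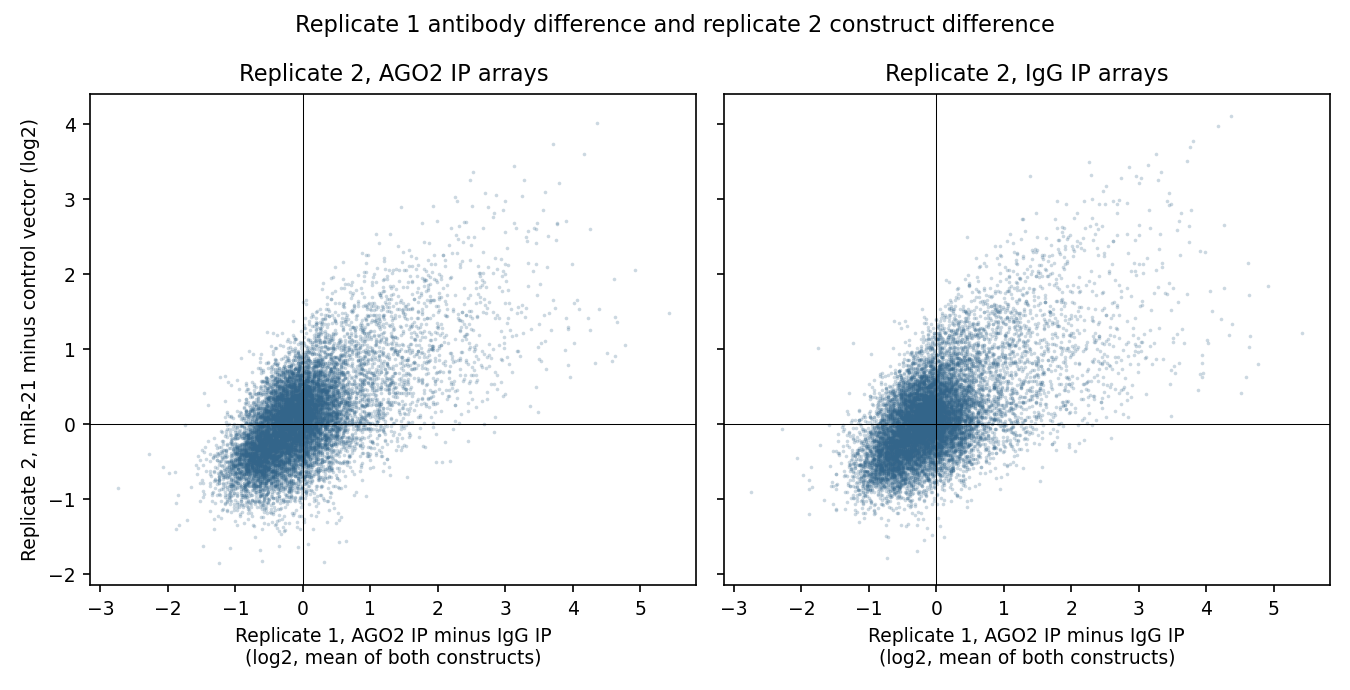
Mean AGO2 IP minus IgG IP of replicate 1 (x axis, log2) against miR-21 minus control vector of replicate 2 (y axis, log2) in its AGO2 IPs (left) and IgG IPs (right), 1 point per gene. The 1541 genes called higher on the x axis have a median of 0.86 on the left and 0.88 on the right.

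Across genes, the replicate 1 difference with control vector correlated with the replicate 2 construct difference at r = 0.62 in the AGO2 IPs and 0.62 in the IgG IPs (12824 genes), and the one with miR-21 at 0.59 and 0.56. The Total RNA arrays of replicate 2 gave -0.05 and 0.11 in the same comparison. The points share the scaling of the arrays and the base composition of their probe sets. In array likeness, the AGO2 IP array with miR-21 of replicate 1 correlated at 0.915 with the AGO2 IP and at 0.923 with the IgG IP of miR-21 in replicate 2, and at 0.834 and 0.839 with those of control vector. The replicate 1 IgG IP array with control vector was also closer to the miR-21 arrays of replicate 2 (0.883 and 0.892) than to those of control vector (0.862 and 0.867), by a smaller margin.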

How the data were processed

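The labels describe Affymetrix expression arrays of biotin-labelled RNA, made from 1000 ng of RNA for Total RNA arrays and 100 ng for IP arrays. The authors deposited log2 values of 54675 probe sets, made with RMA per the submitters' processing notes. The labels state neither the RMA version nor whether all arrays were scaled together. Of the probe sets, 41091 list 1 gene symbol. Probe sets naming several genes (1801) or no gene were not used, and each of 19775 genes kept its brightest probe set. The 12824 genes at or above 4.02, the median probe set mean, were tested with limma 3.58.1 in R 4.3.3 (lmFit, eBayes) on group means, with Benjamini-Hochberg adjustment at 0.05. The spread came from all 12 arrays, or from the 6 of a replicate number, with no block. Figures used Python 3.11.15 with matplotlib 3.10.9.

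Same-numbered arrays deviated together in all 15 pairs of groups (correlations of 0.468 to 0.873), so values with the replicate number as a block are given too. Members, lists and tests were chosen with earlier results of these data known. Named genes were the 10 largest called rises and falls per comparison with arrays apart, up to 4 members per list, and a set of miRNA pathway genes. TNFAIP3, which is on both target lists, was named after its values were seen. The scripts were tested on simulated data. For arrays, their number limits the precision.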

Additional observations from a re-analysis of the deposited data

Results flagged for a closer look

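The difference between AGO2 IP and IgG IP changed with the replicate number: limma's test of replicate 1 minus replicate 2 called 212 of 12824 genes at a Benjamini-Hochberg adjusted p under 0.05, with ZNF439, ZNF700 and GPR137B the largest. No explanation was tested.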

How the results depend on the processing

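The 0 calls of AGO2 IP against IgG IP over both replicates remained 0 in each alternative run but 1. With the replicate block and without the AGO2 IP with control vector and the IgG IP with miR-21 of replicate 2, an alternative chosen with the layout of these arrays known, 951 genes were called. Of the replicate 2 IPs, that run kept only AGO2 IP with miR-21 and IgG IP with control vector, which differ in construct too. In replicate 2 it therefore cannot tell antibody from construct. Most rises of replicate 1 were already known to be higher with miR-21 there. The 951 calls are thus no separate evidence of an antibody difference over both replicates. The replicate block alone gave 0 calls for both constructs together, for each construct and for the interaction, so pairing by replicate number changed no other call. The replicate 1 count of 3021 was 1927 with 1 fit over all 12 arrays, and leaving out 1 array gave 856 to 5347. The change between replicates (212) was 368 with cyclic loess, 584 with the construct block, 7 with the 8 IP arrays only and 125 with array weights, and leaving out 1 array gave 45 (without the replicate 1 IgG IP with control vector) to 1137 (without the replicate 2 one). Leaving out 1 array gave 2423 to 5390 calls for the replicate 2 split by construct (4701). For these the cause was not tested. An array left alone in a group is assumed to vary like the others. Single genes reversed in replicate 1 only without the AGO2 IP with control vector (AGO3 to 0.52, AGO4 to 0.24, SPRY1 to 0.19, SPRY2 to 0.16) or without the one with miR-21 (AGO2 to -0.6), and none was called as deposited. Leaving out the other of these 2 arrays gave -0.82, -0.91, -0.9, -0.66 and 0.74 in the same order, all past the threshold. The 96 called genes named for replicate 1 kept direction and call in 1035 of 1143 values and lost the call in 108. A description by protein length was not run. Signal near background limits the genes close to 4.02.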
